A study of Mus musculus with 6 samples.

Results

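The cytosolic nucleic acid sensors and DNases described here are 10 genes chosen by name, of 55291 genes in the deposited table. They are the RNA helicases Ddx58, Ifih1 and Dhx58, their adaptor Mavs, the double-stranded RNA and Z-form nucleic acid binders Eif2ak2, Adar and Zbp1, the DNA pathway adaptor Tmem173, and the DNases Trex1 and Dnase2a. The table listed 9 of them under these symbols, and Tmem173 under its synonym Sting1. Transcript levels were measured by sequencing poly(A) RNA of BMDM, macrophages that are grown in culture from the bone marrow of mice. The design has 3 libraries without and 3 libraries with apoptotic cell (AC) pretreatment, called untreated and AC pretreated. The sources used here do not give the strain, age or genotype of the mice, the culture conditions, or which apoptotic cells were added, how many and for how long. The labels do not tie replicates to separate animals or cultures. The p-values therefore reflect only how much these libraries varied, which may be technical.

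Cells detect viral or misplaced self nucleic acids in the cytosol with sensors that lead to type I interferon. RIG-I (Ddx58) and MDA5 (Ifih1) bind double-stranded RNA and signal through MAVS on mitochondria, while cGAS makes a cyclic dinucleotide from double-stranded DNA that activates STING (Tmem173). Nucleases such as TREX1 in the cytosol and DNase II (Dnase2a) in lysosomes remove DNA before it reaches the sensors, and macrophages that engulf dying cells rely on DNase II to digest the DNA they take in. Many of the RNA sensors are themselves induced by interferon through the interferon-stimulated response element (ISRE), a promoter sequence bound by interferon-activated transcription factors.

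That element was looked for by its letters in promoter windows of 300 bases (250 before to 50 after each RefSeq start, build GRCm38.p6), because several of the genes are known interferon targets. Windows matched Ddx58, Ifih1, Mavs, Eif2ak2, Adar, Trex1 and Dnase2a, 7 genes with 10 windows. Dhx58 and Zbp1 had no matched window, and Tmem173 was not searched. The ISRE core searched was GAAA, then any bases NN, then GAAA, on both strands. It was found in the windows of 3 of the 7 genes, Ddx58, Ifih1 and Eif2ak2, and in those of 3.99% of 27025 genes in the table of windows (3.44% of 32851 windows). The 30 bases around each match are printed here from the gene's own strand, with the matched letters in capitals. They allow the 3 matches to be compared.
Ddx58, chr4:40239804-40239833, minus strand: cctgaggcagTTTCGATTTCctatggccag
Ifih1, chr2:62646206-62646235, minus strand: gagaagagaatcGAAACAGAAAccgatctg
Eif2ak2, chr17:78882535-78882564, minus strand: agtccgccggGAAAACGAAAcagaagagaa
The match began 2 bases downstream of the start in Ddx58, where it read on the opposite strand, 32 bases downstream in Ifih1 and 18 bases downstream in Eif2ak2. The core of the gamma-activated site (GAS), TTCNNNGAA, was found in windows of 2 genes, Eif2ak2 and Adar, against 9.55% of all genes. It did not overlap a match to the ISRE core as searched. That core fixes the spacing, so GAAACGAAA, with 1 base between the repeats, was not counted. These letters lie in a window of Adar, where they overlap the GAS match, and in that of Ddx58. No match to the ISRE core is therefore not absence of an ISRE. A match describes letters only. No binding was measured.

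Depth was at least 19122953 to 32348763 reads per library, as recovered from the deposited values. All 13 macrophage markers were expressed, the lowest with a mean of 83.4 TPM, and 13 of 15 T cell and thymocyte markers stayed below 1 TPM in all 6 libraries (Cd3d and Cd8b1 were listed at 0). Transcripts of trophoblast and placenta markers (26 genes, of which Prl3d1, Prl6a1, Cts7 and Cts8 were listed at 0 in all libraries) summed to 24.1, 48.3 and 0 TPM in untreated replicates 1, 2 and 3 and to 43.5, 201 and 0.0695 TPM in AC replicates 1, 2 and 3. These transcripts thus marked replicates 1 and 2 of both groups. AC replicate 1 also stood apart by transcript length, as given with the genes it touches.

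Levels are in TPM, a share of all transcripts in parts per 1000000 that allows for gene length, with mean ± SD and n = 3 libraries per group. A log2 difference is the AC pretreated minus the untreated mean of log2(TPM + 1), with its SE from limma. This scale understates the change of low genes. No sensor or DNase gene passed the test. Of the 9 genes that passed the filter (at least 1 TPM in at least 3 libraries), 0 had a Benjamini-Hochberg adjusted p under 0.05 by limma-trend, each adjusted p was 1.0, and 0 had an unadjusted p under 0.05. With voom on recovered reads 0 passed and 0 had an unadjusted p under 0.05. With quality weights per library in voom these counts were 0 and 1, where 11.5% of all genes had an unadjusted p under 0.05. Over all 12603 genes tested, 0 (0.0%) passed by limma-trend and 1.3% had an unadjusted p under 0.05. The mean was lower with AC pretreatment for 7 of the 9 genes, where 70.6% of all genes did, and the median log2 difference was -0.16 against -0.07 over all genes. Trex1 was listed at 0 in every library and was not tested. In bulk RNA, fewer cells that express a gene and less RNA of it per cell cannot be told apart.

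**Figure D1:**
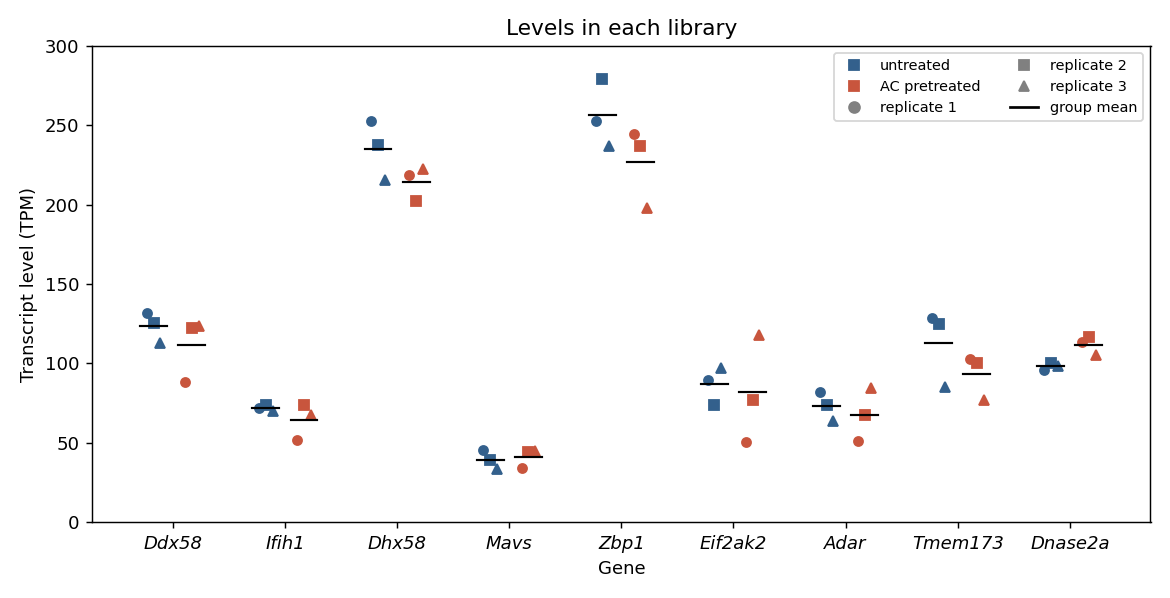
Transcript level in TPM (linear axis from 0) of the 9 expressed genes in each of the 6 libraries; blue is untreated, red is AC pretreated, symbols mark the replicate number and black lines the group means. The groups overlap for each gene but Dnase2a, whose 3 AC pretreated libraries (105 to 117 TPM) lie above the untreated ones (96.1 to 100.2 TPM), and AC replicate 1 (red circles) is the lowest library for Ddx58, Ifih1, Eif2ak2 and Adar.

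The 9 genes with a value above 0 were expressed in both groups. Ordered by the mean over the 6 libraries, the genes ran from Zbp1 (242 TPM) and Dhx58 (225 TPM) through Ddx58 (117 TPM), Dnase2a (105 TPM), Tmem173 (103 TPM), Eif2ak2 (84.4 TPM), Adar (70.3 TPM) and Ifih1 (68.1 TPM) to Mavs (40.2 TPM). Only the steps from Dhx58 to Ddx58 and from Ifih1 to Mavs separated neighbours whose 6 libraries did not overlap. All other neighbours in this order overlapped in range. The order also depends on the merged length of all annotated exons, because the length of the transcripts expressed was not measured. Behind these levels stood 714 to 10680 reads per gene and library.

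The RIG-I-like helicases were led in level by Dhx58, which encodes LGP2, the family member without the signalling domains. Ddx58, the gene of RIG-I (GENCODE ENSMUSG00000040296.15, mm10 chromosome 4, 40203773 to 40239828), stood at 132, 126 and 113 TPM in untreated replicates 1, 2 and 3 and at 88.3, 123 and 123 TPM in AC replicates 1, 2 and 3. AC replicate 1 lay below all other libraries, and AC replicates 2 and 3 lay within the untreated range. The means were 123 ± 9.53 and 111 ± 20.05 TPM, a log2 difference of -0.16 ± 0.17 (95% interval -0.54 to 0.22). Without AC replicate 1 the difference was -0.00.

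Ifih1, the gene of MDA5, which binds long double-stranded RNA (ENSMUSG00000026896.14, chromosome 2, 62595798 to 62646255), stood at 72.2, 73.7 and 69.8 TPM in untreated libraries and at 51.7, 73.7 and 67.3 TPM in AC pretreated replicates 1, 2 and 3. The untreated libraries were close together, and AC replicate 1 again lay lowest while AC replicate 2 was level with the highest untreated library. The means were 71.9 ± 1.95 and 64.2 ± 11.3 TPM, a log2 difference of -0.17 ± 0.16 (95% interval -0.54 to 0.19), and -0.03 without AC replicate 1.

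Dhx58 (ENSMUSG00000017830.15, chromosome 11, 100694884 to 100704271) stood at 252, 238 and 215 TPM in untreated libraries and at 219, 202 and 222 TPM in AC pretreated replicates 1, 2 and 3. Here AC replicate 2 was lowest, and the groups overlapped only through untreated replicate 3. The log2 difference was -0.13 ± 0.13 (95% interval -0.42 to 0.16). Reads from Dhx58os, an antisense gene at 1.38 to 5.05 TPM that shares 4.31% of the Dhx58 exon bases, cannot be told apart from it if strand was not used in counting.

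Mavs, the adaptor on which RIG-I and MDA5 converge (ENSMUSG00000037523.13, chromosome 2, 131234063 to 131248025), had the lowest mean TPM of the 9, at 45.6, 39.1 and 33.4 TPM in untreated libraries and at 33.9, 44.1 and 45.0 TPM in AC pretreated libraries. The ranges coincided almost wholly. The means were 39.4 ± 6.08 and 41.0 ± 6.18 TPM, a log2 difference of 0.06 ± 0.18 (95% interval -0.35 to 0.46). Its sign turned without untreated replicate 3 (-0.05) and in the libraries with placental transcripts (-0.12).

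Among the genes for binders of double-stranded RNA and Z-form nucleic acids, Zbp1, whose product senses Z-form nucleic acids and can start necroptosis (ENSMUSG00000027514.14, chromosome 2, 173206612 to 173218923), had the highest mean TPM of all 9. It stood at 253, 279 and 237 TPM in untreated libraries and at 245, 237 and 198 TPM in AC pretreated replicates 1, 2 and 3. AC replicate 3 was lowest, AC replicate 2 was level with the lowest untreated library, and AC replicate 1 lay inside the untreated range. The means were 256 ± 21.3 and 227 ± 25.1 TPM, a log2 difference of -0.18 ± 0.14 (95% interval -0.50 to 0.14). It was -0.24 without AC replicate 1 and -0.09 without AC replicate 3.

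Eif2ak2, the gene of PKR, a kinase that stops translation when it binds double-stranded RNA (ENSMUSG00000024079.4, chromosome 17, 78852564 to 78882573), varied most. It stood at 89.6, 73.5 and 97.3 TPM in untreated libraries and at 50.6, 77.3 and 118 TPM in AC pretreated replicates 1, 2 and 3, so that the AC libraries held both the lowest and the highest value. The coefficient of variation was 14.0% over the untreated and 41.3% over the AC libraries. The log2 difference was -0.16 ± 0.28 (95% interval -0.80 to 0.49), and it was 0.145 without AC replicate 1 and -0.46 without AC replicate 3.

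Adar, which encodes the enzyme that edits adenosine to inosine in double-stranded RNA and so keeps self RNA from the sensors (ENSMUSG00000027951.16, chromosome 3, 89715022 to 89753446), showed the same order of AC libraries as Eif2ak2. It stood at 82.1, 73.7 and 63.7 TPM in untreated libraries and at 50.9, 67.2 and 84.5 TPM in AC pretreated replicates 1, 2 and 3. The log2 difference was -0.14 ± 0.20 (95% interval -0.60 to 0.33), 0.05 without AC replicate 1 and -0.31 without AC replicate 3. Of the Adar exon bases, 16.8% are shared with Chrnb2 on the opposite strand, which stood at 0.682 to 2.23 TPM.

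Of the DNA pathway, Tmem173, the gene of STING (ENSMUSG00000024349.10, chromosome 18, 35733679 to 35740554), had the lowest log2 difference of the 9. It stood at 129, 125 and 85.3 TPM in untreated libraries and at 103, 100.3 and 76.9 TPM in AC pretreated replicates 1, 2 and 3. Replicate 3 was the lowest library of its group on both sides, and untreated replicate 3 lay between AC replicates 2 and 3, so the groups overlapped. The means were 113 ± 24.0 and 93.3 ± 14.2 TPM, a log2 difference of -0.26 ± 0.20 (95% interval -0.72 to 0.19, unadjusted p = 0.223 by limma). It was -0.45 without untreated replicate 3 and -0.13 without AC replicate 3. Among replicates 1 and 2, which held placental transcripts, the difference was -0.32, and between the replicate 3 libraries it was -0.15.

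Dnase2a, the lysosomal DNase gene (ENSMUSG00000003812.13, chromosome 8, 84908560 to 84922915), was the 1 gene of the 9 whose groups did not overlap. Over all genes tested, the groups did not overlap for 4.42%, with AC higher for 0.936% and AC lower for 3.48%. It stood at 96.1, 100.2 and 98.6 TPM in untreated libraries and at 114, 117 and 105 TPM in AC pretreated replicates 1, 2 and 3. Every AC pretreated library lay above every untreated one, with the smallest gap at AC replicate 3. The means were 98.3 ± 2.07 and 112 ± 5.95 TPM, a log2 difference of 0.18 ± 0.12 (95% interval -0.10 to 0.46, unadjusted p = 0.173 by limma, adjusted p = 1.0). The difference was 0.15 to 0.22 on leaving out each library in turn, 0.23 in replicates 1 and 2, which held placental transcripts, and 0.09 between the replicate 3 libraries. Of its annotated exon bases 29.99% are shared with Mast1 on the opposite strand, which stood at 0.0715 to 0.301 TPM.

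Trex1, whose product is the main exonuclease for DNA in the cytosol (ENSMUSG00000049734.9, chromosome 9, 109057933 to 109059734), was listed at 0 in all 6 libraries. In GENCODE M21 all 1147 of its exon bases are also exon bases of Atrip on the same strand (chromosome 9, 109057933 to 109074124). Of 116 protein-coding genes whose exon bases all belong to other genes of the same strand as well, 97 (83.6%) were listed at 0 in all libraries, against 5932 of 20135 (29.5%) of those that share no exon base on their strand. The sources used here do not say how reads over shared bases were counted. The value of 0 was therefore read neither as absence of Trex1 RNA nor as a limit on it. Atrip itself, which encodes a partner of the checkpoint kinase ATR, stood at 6.46 to 7.29 TPM in untreated libraries and at 6.06 to 7.86 TPM in AC pretreated libraries.

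**Figure D2:**
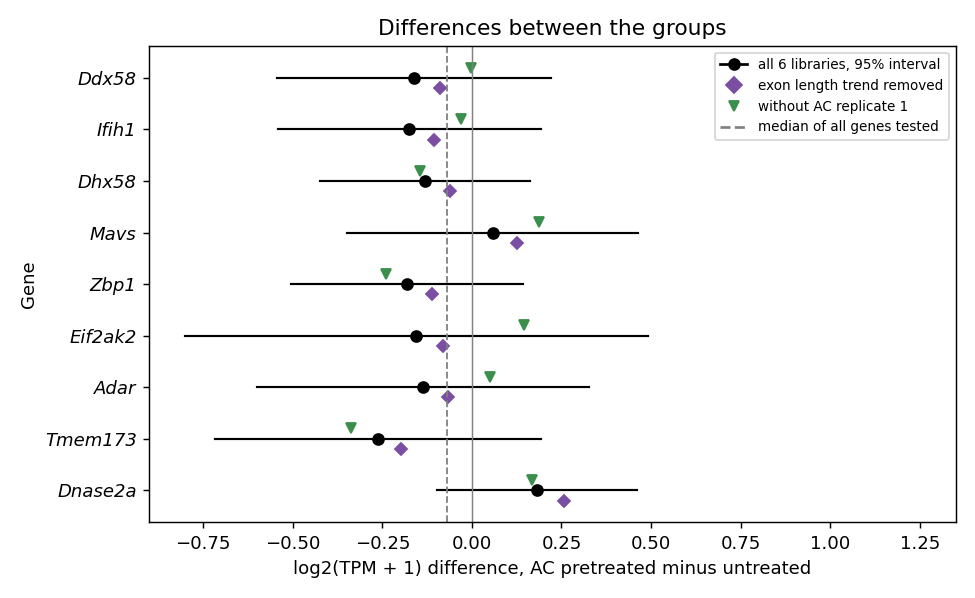
Log2(TPM + 1) difference, AC pretreated minus untreated, of the 9 tested genes; black points and bars are the fit on all 6 libraries with its 95% interval, purple diamonds the fit after removal of the exon length trend, green triangles the fit without AC replicate 1, and the dashed line the median of all 12603 genes (-0.07). Every interval includes 0, and Ddx58 (-0.16), Ifih1 (-0.17), Eif2ak2 (-0.16) and Adar (-0.14) move to -0.00, -0.03, 0.145 and 0.05 without AC replicate 1. Without that library Tmem173 (-0.26), Zbp1 (-0.18) and Dhx58 (-0.13) move further below 0, to -0.34, -0.24 and -0.15. Mavs (0.06) and Dnase2a (0.18) are then at 0.19 and 0.17.

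These intervals reflect the spread of these libraries, which may be technical, and do not bound a difference between animals or cultures. The 95% interval lay inside a 2-fold change either way for 9 of 9 genes and inside 1.5-fold for 6 of 9, where 87.4% and 46.1% of all genes tested did. The 3 genes whose interval reached past 1.5-fold were Eif2ak2, Adar and Tmem173. Without AC replicate 1, the count of genes with a lower mean was 5 of 9 rather than 7 of 9, with 48.3% over all genes.

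The AC libraries differed from each other along transcript length, and in AC replicate 1 the genes with the most exon bases, Ddx58, Ifih1 and Adar, were low as other long genes were. Deviations are given here as log2(TPM + 1) minus the mean of the untreated libraries. Over 4583 tested genes with more than 5000 merged exon bases the median deviation was -0.40, 0.04 and 0.15 in AC replicates 1, 2 and 3, and over 7915 shorter genes it was -0.08, -0.01 and -0.08. Ddx58 (7050 exon bases) stood at -0.48, -0.01 and 0.00 in AC replicates 1, 2 and 3. Ifih1 (8165) stood at -0.47, 0.04 and -0.09. Adar (8118) stood at -0.51, -0.11 and 0.21. In AC replicate 1 these 3 genes thus lay somewhat below the median of long genes. Eif2ak2 (5113) went further in the same directions, at -0.76, -0.16 and 0.45. Dnase2a, at its merged length of 5389, did not follow the length trend in AC replicate 1, where it stood at 0.21. Of these bases 1616 are shared with Mast1 and 3773 with no other gene. The length of the transcripts expressed was not measured, so the trend removed from Dnase2a below may be too large. After the trend on exon length was removed from each library, which also brings the median difference of all genes to -0.00, AC replicate 1 stood at -0.10 for Ddx58, -0.06 for Ifih1, -0.10 for Adar, -0.47 for Eif2ak2 and 0.51 for Dnase2a. The group differences were then -0.09, -0.10, -0.07, -0.08 and 0.26 for these 5 genes, with adjusted p = 1.0 by limma for each.

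**Figure D3:**
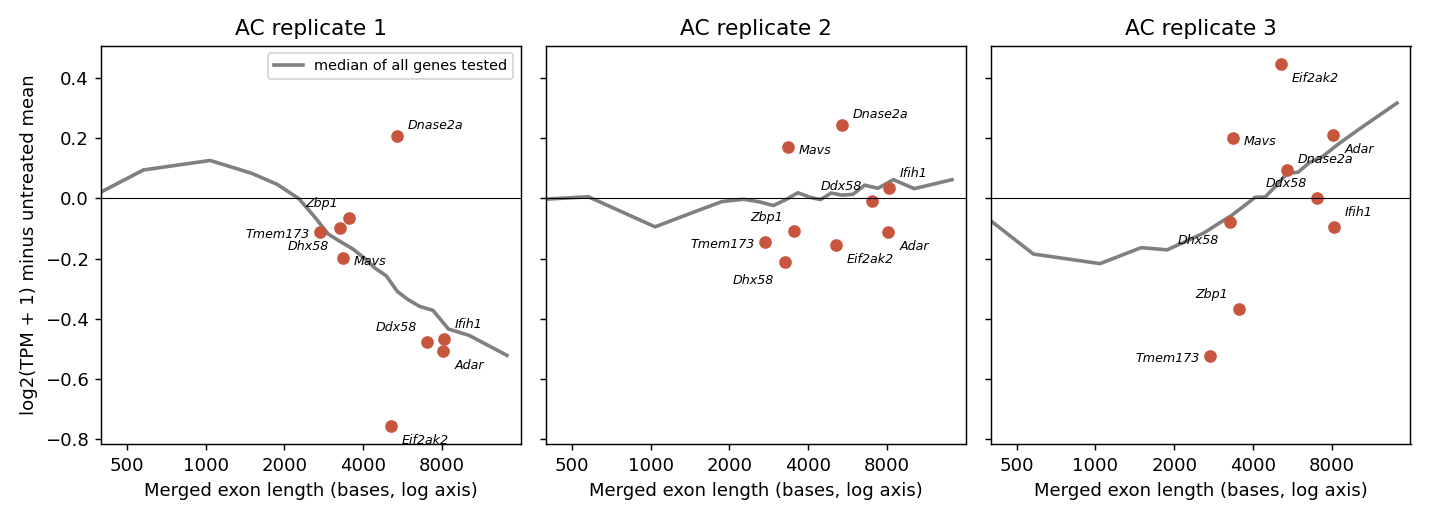
Deviation of each gene from the mean of the untreated libraries, in log2(TPM + 1), against merged exon length in bases (log axis), with 1 panel per AC pretreated library; red points are the 9 genes and the grey line joins the medians of all tested genes in 20 bins of length. In AC replicate 1 the line falls with length and Ddx58 (-0.48), Ifih1 (-0.47) and Adar (-0.51) lie near it, whereas in AC replicate 3 it rises and Tmem173 (-0.53) and Zbp1 (-0.37) lie well below it.

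The shorter genes had another order of libraries. In AC replicate 3, Zbp1 (3529 exon bases) stood at -0.37 and Tmem173 (2741) at -0.53, and for both it was the lowest library. A list of 18 interferon-induced genes outside the set, Ifit1 and Rsad2 among them, had a median deviation of -0.19, -0.11 and -0.31 in AC replicates 1, 2 and 3 and of -0.04 to 0.06 in untreated libraries, so AC replicate 3 was lowest there too. Many of the 18 genes are short, and short genes in general were low in AC replicate 3. Their median there was -0.17 in the length bin at 1878 exon bases. How far the level of the list follows from length was not tested. With the length trend removed, Zbp1 stood at -0.33 and Tmem173 at -0.43 in AC replicate 3. The median of the 9 sensors and DNases was -0.20, -0.11 and 0.00 in AC replicates 1, 2 and 3 before removal of the trend. Ddx58, Ifih1, Adar and Eif2ak2 had their lowest value in AC replicate 1. Dhx58 had its lowest value in AC replicate 2, and Mavs and Dnase2a in an untreated library.

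The genes closest in profile were taken as those with the smallest root mean square difference of centred log2(TPM + 1) over the 6 libraries, among 9300 other genes with a mean of at least 5 TPM. Ifih1 had the closest match of the set, Aim2, a cytosolic DNA sensor gene, at 0.020 log2 units, against a deviation of Ifih1 itself of 0.18, and was followed by Cdc42se2 and Slfn8. Aim2 stood at 67.1, 70.2 and 64.7 TPM in untreated libraries and at 48.7, 67.9 and 64.3 TPM in AC pretreated replicates 1, 2 and 3. For Ddx58 the closest were Klhl21, Eif4enif1 and Zbtb2, at 0.026 to 0.034. For Dhx58 they were Jmjd6, Klc4 and Ifnar2, the last a subunit gene of the interferon receptor, at 0.026 to 0.031. For Eif2ak2 they were Zfp217, Etv3 and Gnaq, and for Adar the zinc finger genes Zfp866 and Zfp809 with Kansl3. Zbp1 was closest to Ube2f, Myg1 and Gars, and Mavs to Nckipsd, Secisbp2 and Zfp574. Tmem173 had the most distant neighbours of the 9, Dapp1, H2-T-ps and Oxa1l, at 0.066 to 0.077. Dnase2a was closest to Ifi27, Glo1 and Chid1, at 0.037 to 0.049. With 6 libraries and this many genes, close matches arise for any gene, and they are given as a description.

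Other genes of the same pathways were taken from 7 lists, 128 genes in all, of which 118 were tested. By limma-trend 0 passed in either direction, with 0 at an unadjusted p under 0.05 (with voom, 8 when libraries were weighted by quality, where 11.5% of all genes did, and 0 when not, and 0 passed either way). Of the 118, 94 (79.7%) had a lower mean, with a median log2 difference of -0.09 against -0.07 over all genes. The groups did not overlap for 5 of the 118, near the 4.42% of all genes, with AC lower for Rnf135, Pcbp2, Mlkl and Ifnar2 and AC higher for Pld3.

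Among 19 RNA sensing cofactors and ubiquitin ligases, 16 had lower means and 0 passed. Rnf135, the ligase that ubiquitinates RIG-I, stood at 51.2, 48.2 and 50.1 TPM in untreated libraries and at 46.5, 43.0 and 41.8 TPM in AC pretreated replicates 1, 2 and 3, a log2 difference of -0.18 ± 0.13. Every AC library lay below every untreated one. Nlrp3, an inflammasome sensor gene, differed by -0.31 ± 0.27 with overlapping groups. Among 17 MAVS regulators, 15 had lower means and 0 passed. Pcbp2, whose product promotes the breakdown of MAVS, stood at 183, 169 and 170.4 TPM in untreated libraries and at 142, 147 and 145 TPM in AC pretreated libraries, a log2 difference of -0.27 ± 0.12 (unadjusted p = 0.053 by limma, adjusted p = 1.0). Isg15, an interferon-induced ubiquitin-like modifier, differed by -0.35 ± 0.23.

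Of 18 downstream kinases and transcription factors, 15 had lower means and 0 passed. Tbk1, the kinase on which the MAVS and STING pathways converge, averaged 89.2 ± 6.32 and 87.1 ± 20.3 TPM. Irf3, its main target, averaged 50.8 ± 8.47 and 50.2 ± 5.88 TPM. These levels differed by less than the spread between libraries. Irf7, an interferon-induced factor of the same family, averaged 1233 ± 66.7 and 1063 ± 180 TPM and differed by -0.22 ± 0.16, and Traf2 differed by -0.20 ± 0.16.

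Among 22 genes of the cGAS and STING pathway, 16 had lower means and 0 passed. Cgas, the DNA sensor upstream of STING, stood at 19.96, 17.5 and 17.5 TPM in untreated libraries and at 11.5, 17.8 and 20.5 TPM in AC pretreated replicates 1, 2 and 3. Its mean level, like that of Mavs, was below that of STING, and the AC libraries held both its lowest and its highest value. The log2 difference was -0.17 ± 0.22. Rnf5, a ligase that marks STING for breakdown, differed by -0.30 ± 0.24 and Stim1, a calcium sensor gene, by -0.18 ± 0.17.

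Of 25 further nuclease and nucleic acid clearance genes, 19 were tested, 13 with lower means, and 0 passed. Pld3, which encodes a lysosomal exonuclease for single-stranded nucleic acids, stood at 778, 698 and 709 TPM in untreated libraries and at 851, 888 and 822 TPM in AC pretreated replicates 1, 2 and 3. Every AC library lay above every untreated one, as for Dnase2a, and the log2 difference was 0.23 ± 0.13 (unadjusted p = 0.104 by limma, adjusted p = 1.0). In the same list Pld4 went the other way, averaging 961 ± 178 and 877 ± 62.8 TPM, a difference of -0.12 ± 0.17 with overlapping groups. Samhd1, a nucleotide hydrolase gene, averaged 334 ± 25.9 and 299 ± 19.7 TPM, a difference of -0.16 ± 0.13. Rnaseh2b, a subunit gene of the enzyme that removes RNA from RNA:DNA hybrids, averaged 6.93 ± 0.463 and 7.45 ± 1.66 TPM. Dnase2b, Trex2, Rnaset2a and Adarb1 were below 1 TPM in all 6 libraries, and Trex2 was listed at 0 throughout. Rnaset2b was also low, at 0.81 to 1.34 TPM. How shared and multi-mapping reads were handled is not given, so values near 0, here and in the other lists, were not read as absence of RNA.

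Among 15 effectors of ZBP1 and PKR, 11 had lower means and 0 passed. Mlkl, the executor of necroptosis, stood at 55.2, 56.6 and 51.9 TPM in untreated libraries and at 48.0, 49.6 and 47.9 TPM in AC pretreated libraries, with no overlap and a log2 difference of -0.17 ± 0.13. Ppp1r15a, which counters PKR by recruiting a phosphatase, differed by -0.30 ± 0.21. Of 14 interferon and receptor genes, 10 were tested, all 10 with lower means, and 0 passed. Usp18, a negative regulator at the interferon receptor, differed by -0.23 ± 0.13, Irf9 by -0.15 ± 0.13 and Ifnar1 by -0.13 ± 0.16. Ifnb1, the interferon gene that these sensors activate, was below 1 TPM in all libraries, at 0.742, 0.615 and 0.418 TPM in untreated libraries and at 0.294, 0 and 0.767 TPM in AC pretreated replicates 1, 2 and 3, and Ifna1, Ifna2 and Ifna4 were listed at 0. All 18 of the interferon-induced genes used beside the set had lower means, where 70.6% of all genes did, with a median of -0.23, and 0 passed. With AC lower, the groups did not overlap for 4 of the 18, Cxcl10 and Cmpk2 among them, against 3.48% of all genes. An unadjusted p under 0.05 by limma was found for 1 of the 18, against 1.3% of all genes. Cxcl10, a chemokine gene, stood lowest of them at -0.61 ± 0.17, and Cmpk2 differed by -0.32 ± 0.15.

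Several of these pathway values rested on single libraries. Without AC replicate 1 the log2 difference turned sign for Cgas (0.06) and Tbk1 (0.15), and without AC replicate 2 for Rnaseh2b (-0.08). Irf3 ranged from -0.15 without untreated replicate 3 to 0.08 without untreated replicate 1. Without AC replicate 2, Rnf5 stood at -0.09, Isg15 at -0.13, Irf7 at -0.13 and Ppp1r15a at -0.16. Nlrp3 ranged from -0.57 without untreated replicate 3 to -0.09 without untreated replicate 1, and Stim1 from -0.31 without AC replicate 3 to -0.11 without untreated replicate 1. Without AC replicate 1, Isg15 stood at -0.56, Irf7 at -0.36, Aim2 and Ifnar1 each at -0.03, Samhd1 at -0.11 and Cmpk2 at -0.20, and without AC replicate 3 Rnf5 stood at -0.48. By contrast, the differences of Rnf135 (-0.23 to -0.15), Pcbp2 (-0.29 to -0.23), Mlkl (-0.20 to -0.14) and Pld3 (0.20 to 0.28) moved less over the 6 sets that leave out 1 library, which non-overlapping groups in the same libraries already favour.

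**Figure D4:**
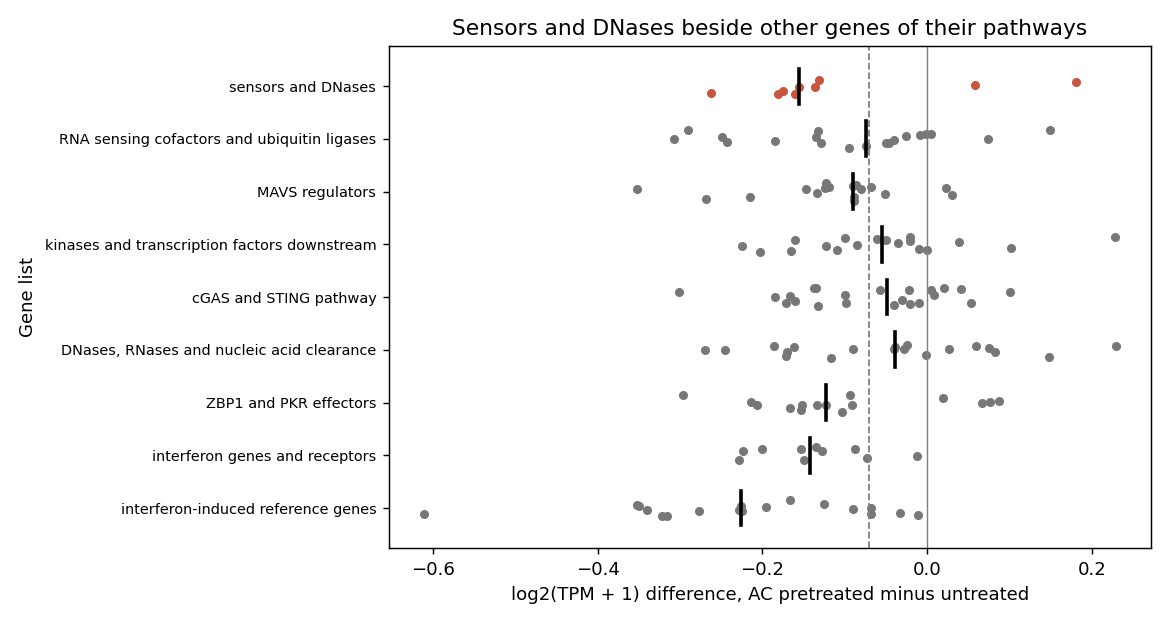
Log2(TPM + 1) difference, AC pretreated minus untreated, of every tested gene in the set (red) and in 8 lists of other genes (grey), with list medians as black bars, the median of all genes as a dashed line (-0.07) and points spread vertically only for legibility. The set has a median of -0.16 and ranges from -0.26 (Tmem173) to 0.18 (Dnase2a), and the interferon-induced genes have a median of -0.23.

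The 2 sets of libraries marked by placental transcripts differed in direction for several sensors. Among replicates 1 and 2, which held these transcripts, the mean was lower with AC pretreatment for 8 of 9 genes, with Adar at -0.40, Eif2ak2 at -0.37, Ddx58 at -0.30, Ifih1 at -0.24 and Dhx58 at -0.22. Between the replicate 3 libraries, which lacked them, Ifih1 (-0.05), Zbp1 (-0.26) and Tmem173 (-0.15) were lower, while Adar (0.40), Mavs (0.42), Eif2ak2 (0.27), Ddx58 (0.13), Dhx58 (0.04) and Dnase2a (0.09) were higher. Before any removal of the length trend, Zbp1, Tmem173, Ifih1 and Dnase2a kept their direction in both sets. The replicate 3 comparison is of 1 library with 1, and levels in AC replicate 3 rose with exon length. With the trend removed, Dnase2a stood at 0.05 in untreated and 0.03 in AC replicate 3, and Ddx58 at -0.09 and -0.12. Both were then lower in AC replicate 3, while the other genes kept their direction there. The difference between the sets was not tested, and the set with placental transcripts also holds AC replicate 1.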

How the data were processed

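Paired-end Illumina reads were made from poly(A) RNA of 6 BMDM libraries, per the labels' protocols. STAR 2.7.10a, Subread, featureCounts 2.0.3 and the build mm10 are listed in the submitters' processing notes. The sources used here do not give the annotation, the strand setting, or how shared and multi-mapping reads were handled. The authors deposited 1 signal value per gene and library, called TPM, in columns summing to 54732 to 92831. Multiplied by GENCODE M21 merged exon length (53584 symbols matched) and divided by 8.57, the deposited signal gave whole reads (tolerance 0.02) for 23696 of 24064 genes (98.5%). Each column was rescaled to 1000000. The filter kept genes that reached 1 TPM in 3 or more libraries. They were tested on log2(TPM + 1) with limma 3.58.1 (R 4.3.3, eBayes with trend), 2-sided, with Benjamini-Hochberg adjustment over all of them and a threshold of 0.05, after tests on simulated data. By chi-square no replicates were duplicates.

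The genes, lists and tests were chosen with earlier results of these data known. From each list the text names genes that passed or, failing that, the 2 with the smallest p and a higher group mean of at least 5 TPM, those under 1 TPM throughout, and a fixed set of 10, of which 1 is not reported here. Ifnar2, Pld4, Ifit1 and Rsad2 were named outside this rule, Ifnar2 and Pld4 after their values were seen. Alternatives changed the pseudocount, filter, scaling or variance model, blocked on replicate number, or left out libraries. The removal of the length trend and the use of protein-coding genes alone were chosen after seeing the data. Python 3.11.15, pandas 2.3.3, numpy 2.4.6 and matplotlib 3.10.9 did the rest.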

Additional observations from a re-analysis of the deposited data

How the results depend on the processing

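Under every alternative run, 0 of the 9 genes passed, with the lowest adjusted p at 0.413 (Tmem173). Over all genes, 1 passed with eBayes without trend and 16 with the values as deposited, which are not scaled for depth, against 0 otherwise. Among the 9, signs turned for Mavs, Eif2ak2 and Adar only, at the settings given with each gene, for Mavs also with values as deposited (-0.01) and without AC replicate 3 (-0.01), and for Eif2ak2 with voom quality weights (0.03). Genes with a lower mean numbered 5 to 8 of 9 on leaving out each library. With median-of-ratios scaling the median of all genes was -0.01 and that of the 9 was -0.09. Whether the replicate numbers pair the libraries was not settled. Correlations of deviations were -0.06, 0.01 and 0.17 for numbers 1, 2 and 3, and untreated replicate 2 correlated most with AC replicate 1, at 0.34. With 3 libraries per group and length trends in the AC libraries, these values cannot exclude pairing. Placental transcripts did follow replicate number in both groups. With the replicate block 0 genes passed, and 225 had an unadjusted p under 0.05 by limma (164 without it). Depth limited none of the 9 genes, with 714 reads or more behind each value.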
